A study of Homo sapiens with 48 samples.

Results

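MAVS was silenced with a small interfering RNA (siRNA) in SK-MEL-103 cells made senescent with doxorubicin, and the messenger RNA of these cells was compared with that of senescent cells that received a control siRNA. SK-MEL-103 is a human melanoma cell line, and doxorubicin is a topoisomerase II poison that damages DNA and drives cells into senescence, in which cells stop dividing for good and secrete inflammatory proteins. The comparison was taken by its sample titles and holds 6 of the 48 libraries of the series, 3 with siMAVS and 3 with the control siRNA (cNeg). In both groups the siRNA was transfected the day before doxorubicin was added at 200 nM for 48 h, and the cells were then kept in drug-free medium, with RNA taken after up to 7 days. The doxorubicin is therefore shared by siMAVS and control libraries. A further 12 libraries of the same line were used: proliferating cells with control siRNA and no doxorubicin, and doxorubicin-treated cells with siMFN1, siMFN2 or both (siMFN1+2), siRNAs against the mitofusins, with 3 libraries in each group. The doxorubicin-treated siMAVS and control libraries of IMR-90, a line of fetal lung fibroblasts, were used for a comparison between lines. The fit for that comparison also held doxorubicin-treated IMR-90 libraries with siMFN1, siMFN2 or siMFN1+2. It held proliferating IMR-90 cells with control siRNA and no doxorubicin as well, and all of these entered the estimate of spread. Each group was made in 1 cell line with 1 reagent named siMAVS, and the labels do not say whether replicates are separate cultures, so p-values measure the spread between these libraries, which may be technical.

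MAVS sits on the outer mitochondrial membrane and is the adaptor of the RIG-I-like receptors, cytosolic proteins that bind double-stranded or uncapped RNA, including RNA released from mitochondria. Once engaged by RIG-I or MDA5, MAVS forms filaments that recruit TRAF proteins and the kinases TBK1 and IKK, which activate the transcription factors IRF3 and NF-kB. Type I interferon made in this way acts back on the cells through its receptor and the JAK kinases to switch on interferon-stimulated genes, most of which encode antiviral proteins.

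The siMAVS libraries held 68143947, 31309056 and 20834544 counts and the control libraries 69723645, 47427213 and 31127306, for replicate numbers 1, 2 and 3. Levels are given as counts per 1000000 (CPM), scaled by trimmed mean of M values (TMM), and differences as log2 fold changes from edgeR's quasi-likelihood test fitted over all 18 SK-MEL-103 libraries. A gene was called when its p-value, adjusted by the Benjamini-Hochberg method over the 17945 genes tested, was below 0.05, and all adjusted p-values below come from this test unless another is named. The siMAVS library numbered 3 stood apart from the other two: HLA-B was at 257 CPM there against 857 and 892, NGFR at 876 against 1957 and 2007, and the proliferation marker MKI67 at 7.83 against 0.873 and 1.31. Main counts are therefore also given without this library. Of the lineage genes, SOX10 stood at 413 to 673 CPM and the dedifferentiation marker AXL at 949 to 1414 CPM in the 6 libraries, while the pigment genes TYRP1 and PMEL did not pass 0.296 and 0.691 CPM and MLANA had 1 count in all. The fibroblast genes DCN and PDGFRA were at most 0.146 and 0.287 CPM, whereas the summed level of the 10-gene fibroblast list was 123 to 139.7 CPM with siMAVS and 126 to 146 CPM with control siRNA, carried mostly by LUM and COL1A1.

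MAVS itself (chr20:3846799-3876123, plus strand, GENCODE 29 on GRCh38) was lower in every siMAVS library. It stood at 51.0, 59.3 and 89.7 CPM with siMAVS and at 176, 169 and 187 CPM with control siRNA, against 126, 97.4 and 118 CPM in proliferating cells. The siMAVS group lay below both other groups with no overlap, and its highest value was that of library 3. The change from control siRNA was -1.41 on the log2 scale (SE 0.15, n = 3 libraries each), a 2.67-fold fall with an adjusted p of 0.00035 by edgeR's quasi-likelihood test. Without siMAVS library 3 the log2 fold change was -1.69. In these bulk samples, fewer cells with a message and less of it per cell cannot be told apart. The mitofusins, which were not targeted here, had log2 fold changes of 0.06 for MFN1 and 0.07 for MFN2, both with an adjusted p of 1.

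Senescent cells with siMAVS had less of 15 messenger RNAs and more of none among the genes that passed the filter on low counts. Of these, 9 belong to a list of interferon-stimulated genes: IFI44L, RSAD2, IFI27, IFI6, OAS2, IFIT1, OASL, OAS1 and ISG15. USP18 acts in interferon signalling, SAMHD1 is a deoxynucleotide hydrolase, and MAVS, TOLLIP and STMN4 were also among the 15, of which 14 are named here. The 15 genes are 0.0836 % of those tested, and the fold changes ran from 1.40-fold for SAMHD1 to 13.6-fold for IFI44L. No gene passed the threshold in the upward direction by edgeR, and there were 260 genes higher and 361 lower at an unadjusted p below 0.05 (1.45 % and 2.01 %). This balance depends on the filter: without it, edgeR tested 41976 genes and called 73 lower, with all 15 among them, and 105 higher, and all 105 were among the 17945 genes tested with the filter. For IFI6 the log2 fold change was -2.68 in both fits, while its edgeR adjusted p went from 4.4e-07 to 5.3e-61 without the filter. That of SAMHD1 went from 0.0318 to 0.0468, so the counts of these fits are not on the same footing. DESeq2 called 26 genes lower (0.145 %), all 15 among them, and 1 higher (0.00557 %). With the replicate number as a block, the edgeR count was 24 lower (0.134 % of those tested) and 1 higher (0.00557 %), HAS3, a hyaluronan synthase, and the 15 genes were called again. All 15 were lower in 3 of 3 same-numbered pairs, as were 14.9 % of all genes tested, and none overlapped between the groups, where 5.54 % of all genes tested were lower without overlap.

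**Figure D1:**
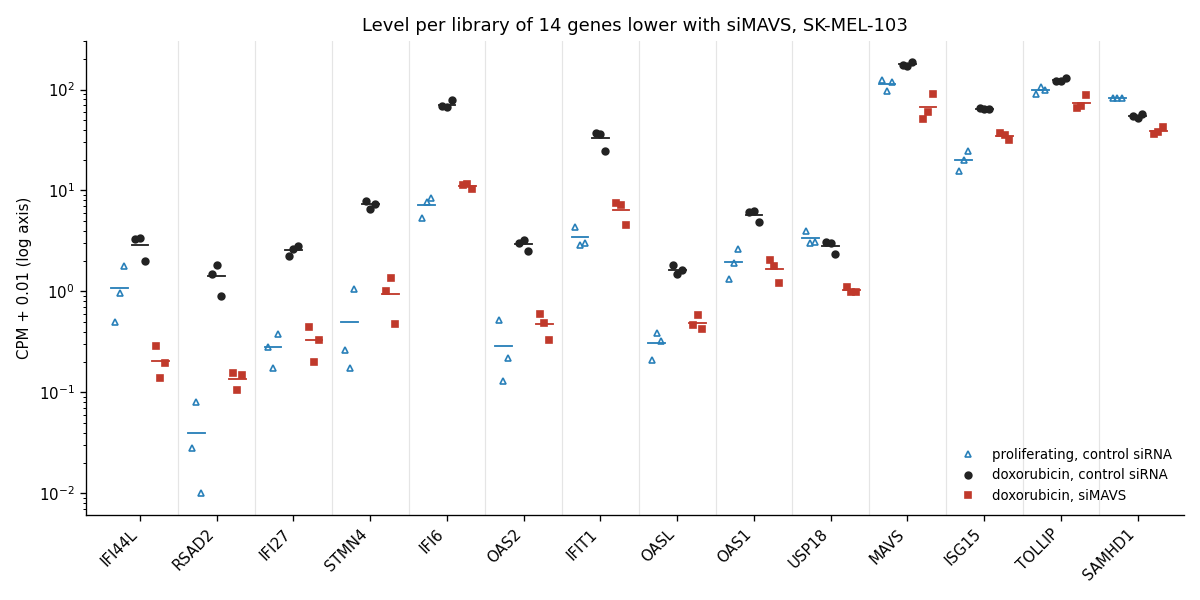
Level of the 14 named called genes in every library, in CPM with 0.01 added on a log axis; triangles are proliferating cells, circles doxorubicin with control siRNA and squares doxorubicin with siMAVS, and each short line is the mean of 3 libraries. For IFI6 the siMAVS libraries lie at 10.3 to 11.6 CPM, below the control libraries at 66.7 to 78.0 CPM.

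Among the called genes, the 3 largest falls were in effector genes of the interferon response, with STMN4, described below, next. IFI44L, an interferon-induced gene of the IFI44 family (chr1:78619922-78646145), was at 0.277, 0.127 and 0.184 CPM with siMAVS and at 3.30, 3.39 and 1.98 CPM with control siRNA. The groups lie far apart, and the siMAVS values rest on only 19, 4 and 4 counts. IFI44L fell by 3.77 on the log2 scale (SE 0.46, adjusted p = 0.00107). RSAD2 encodes viperin, a radical SAM enzyme that makes a chain-terminating nucleotide, and it was at 0.146, 0.0955 and 0.138 CPM (10, 3 and 3 counts) against 1.48, 1.82 and 0.889 CPM. RSAD2 fell by 3.42 (SE 0.44, adjusted p = 0.00186) with no overlap. IFI27, a mitochondrial interferon-induced protein, was at 0.437, 0.191 and 0.322 CPM against 2.26, 2.59 and 2.80 CPM, a fall of 2.93 (SE 0.41, adjusted p = 0.00447).

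IFI6, a membrane protein induced by interferon and related to IFI27, gave the smallest p-value of all genes tested. It was at 11.3, 11.6 and 10.3 CPM with siMAVS and at 68.0, 66.7 and 78.0 CPM with control siRNA. The libraries within each group were close to each other and the groups far apart, so that the fall of 2.68 had an SE of 0.18 and an adjusted p of 4.4e-07. IFIT1, which binds viral RNA that lacks the cap methylation of host messages, was at 7.44, 7.17 and 4.51 CPM against 37.3, 36.2 and 24.7 CPM. Library 3 of each group had the lowest IFIT1 level, and the fall within same-numbered pairs was 2.33, 2.34 and 2.45 on the log2 scale. In the fit the fall was 2.35 (SE 0.25, adjusted p = 0.000322).

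The OAS enzymes make 2′-5′ oligoadenylates when they bind double-stranded RNA and so activate RNase L. OAS2 was at 0.582, 0.478 and 0.322 CPM with siMAVS against 3.04, 3.22 and 2.50 CPM, and it fell by 2.60 (SE 0.36, adjusted p = 0.00407). OAS1 was at 2.02, 1.78 and 1.20 CPM against 6.07, 6.19 and 4.84 CPM, a fall of 1.74 (SE 0.27, adjusted p = 0.00815). OASL, a family member without enzyme activity that enhances RIG-I signalling, was at 0.451, 0.573 and 0.415 CPM against 1.81, 1.48 and 1.61 CPM, a fall of 1.77 (SE 0.31, adjusted p = 0.0313). In each of these genes the groups were separate. OAS3 was at 4.37, 4.04 and 4.47 CPM against 9.01, 8.30 and 7.93 CPM, a log2 fold change of -0.97 (SE 0.18) whose adjusted p was 0.0575 without the block and 0.0375 with it.

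The messages of ISG15 and USP18, which act in ISG15 modification, also fell. ISG15, a ubiquitin-like protein that is joined to other proteins and also secreted, was at 37.4, 35.5 and 31.3 CPM with siMAVS and at 65.5, 64.6 and 64.0 CPM with control siRNA. It fell by 0.90 (SE 0.14, adjusted p = 0.00844), with the groups apart by more than the spread of either. USP18 removes ISG15 from its targets and blocks the interferon receptor, and it was at 1.11, 0.987 and 0.967 CPM against 3.08, 3.01 and 2.34 CPM, a fall of 1.45 (SE 0.23, adjusted p = 0.00844). The USP18 groups do not overlap.

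Outside the interferon lists, TOLLIP fell by 0.74 (SE 0.11, adjusted p = 0.00796). TOLLIP is an adaptor that dampens Toll-like and interleukin-1 receptor signalling, and its levels were 65.7, 69.1 and 88.1 CPM with siMAVS against 121, 121 and 129.8 CPM. As for MAVS, the highest of the siMAVS values was in library 3, which still lay below every control library. SAMHD1, which hydrolyses deoxynucleotides and restricts viruses, was at 36.4, 38.2 and 42.4 CPM against 54.8, 51.6 and 57.0 CPM, a fall of 0.48 (SE 0.08, adjusted p = 0.0318). STMN4, a stathmin that binds tubulin and is mainly neuronal, was at 0.990, 1.34 and 0.461 CPM against 7.88, 6.50 and 7.37 CPM. It fell by 2.92 (SE 0.42, adjusted p = 0.00467), also with no overlap.

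When each of the 6 libraries was left out in turn, 8 to 12 genes fell and none rose. IFI6, IFIT1, IFI44L, RSAD2, OAS2 and MAVS passed the threshold in all 6 of these fits. The count was lowest, at 8, without siMAVS library 2, where IFI27 had an adjusted p of 0.0511, OAS1 and ISG15 of 0.0611, TOLLIP of 0.0794, USP18 of 0.0868, OASL of 0.107 and SAMHD1 of 0.28. Without siMAVS library 1, STMN4 had an adjusted p of 0.0546, TOLLIP of 0.0749, USP18 of 0.0646, SAMHD1 of 0.254 and OASL of 0.262. Without siMAVS library 3, 11 genes fell, with ISG15 at 0.0663, OAS1 and USP18 at 0.0553 and OASL at 0.168. OASL lost its call whichever control library was left out, OAS1, ISG15 and USP18 without control library 1 or 2, TOLLIP without control library 3 (0.0523), and SAMHD1 without any of the 3 control libraries, its largest value there being 0.228. With library 3 of the siMAVS group left out, MAVS, TOLLIP and SAMHD1 kept their calls, TOLLIP with an adjusted p of 0.00134. A fit of the 6 libraries alone, which has fewer degrees of freedom for the spread, called 7 genes lower and none higher, and MAVS and TOLLIP were not among them. SAMHD1 also missed the threshold when DESeq2 size factors replaced TMM.

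**Figure D2:**
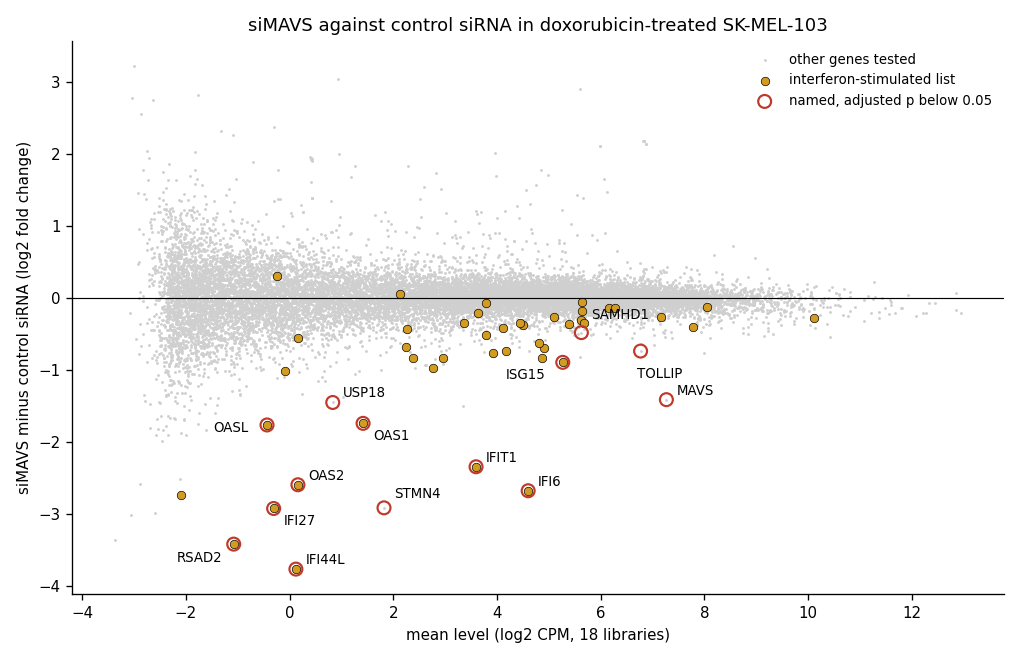
Log2 fold change of siMAVS against control siRNA for each of the 17945 genes tested, against the mean level over the 18 SK-MEL-103 libraries in log2 CPM. Filled circles are the 43 tested interferon-stimulated genes and rings the 14 named called genes, all of which lie below 0, from -0.48 for SAMHD1 to -3.77 for IFI44L.

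Interferon switches on its targets through a promoter element with paired GAAA repeats, the interferon-stimulated response element. The 250 bases before each annotated start site, taken from RefSeq (GRCh38.p14), were searched for GAAANNGAAA and its reverse complement TTTCNNTTTC, where N is any base, on both strands and with overlapping matches counted. Such a match was present in 6 of the 10 called genes with an entry (60 %), in 24 of the 35 tested interferon-stimulated genes with an entry (68.6 %) and in 3.51 % of the 11796 tested genes with one. The 6 genes were IFI6, IFIT1, IFI44L, ISG15, RSAD2 and IFI27, whose windows follow because they are the called genes with a match. Each runs 5′ to 3′ on the strand of the gene and ends at the base before the start site, with the matches in capitals.
IFI6: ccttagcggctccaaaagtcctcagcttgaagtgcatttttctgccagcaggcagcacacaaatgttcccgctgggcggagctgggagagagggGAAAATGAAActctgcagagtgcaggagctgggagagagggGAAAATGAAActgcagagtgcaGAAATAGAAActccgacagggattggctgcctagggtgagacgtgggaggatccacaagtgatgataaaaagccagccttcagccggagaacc
IFIT1: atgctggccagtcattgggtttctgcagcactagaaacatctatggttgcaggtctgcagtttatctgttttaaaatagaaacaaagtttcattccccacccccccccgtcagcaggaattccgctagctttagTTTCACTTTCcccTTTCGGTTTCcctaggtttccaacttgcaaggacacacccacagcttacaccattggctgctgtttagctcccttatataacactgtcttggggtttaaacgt
IFI44L: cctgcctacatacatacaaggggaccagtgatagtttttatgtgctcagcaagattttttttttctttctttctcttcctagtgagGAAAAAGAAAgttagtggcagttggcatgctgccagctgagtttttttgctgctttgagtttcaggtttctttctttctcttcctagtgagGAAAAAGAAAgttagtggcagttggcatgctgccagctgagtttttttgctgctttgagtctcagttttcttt
ISG15: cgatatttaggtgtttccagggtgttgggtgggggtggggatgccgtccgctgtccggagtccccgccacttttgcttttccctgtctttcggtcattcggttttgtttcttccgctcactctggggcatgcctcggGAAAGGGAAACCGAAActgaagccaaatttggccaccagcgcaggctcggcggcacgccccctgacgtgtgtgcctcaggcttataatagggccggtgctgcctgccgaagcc
RSAD2: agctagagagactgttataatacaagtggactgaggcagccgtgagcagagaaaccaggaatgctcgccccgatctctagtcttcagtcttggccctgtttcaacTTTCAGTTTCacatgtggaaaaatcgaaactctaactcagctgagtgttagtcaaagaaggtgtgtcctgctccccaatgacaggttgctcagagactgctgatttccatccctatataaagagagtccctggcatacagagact
IFI27: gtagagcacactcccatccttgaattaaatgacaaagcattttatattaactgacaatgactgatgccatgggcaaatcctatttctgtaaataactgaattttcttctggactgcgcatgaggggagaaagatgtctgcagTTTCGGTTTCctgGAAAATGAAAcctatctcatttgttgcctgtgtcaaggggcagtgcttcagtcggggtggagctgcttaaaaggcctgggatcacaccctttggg
IFI6 (chr1:27672193-27672442, minus strand) held 3 matches, at 156, 115 and 93 bases before the start site. IFIT1 (chr10:89392373-89392622, plus strand) and IFI27 (chr14:94110486-94110735, plus strand) held a pair each. In ISG15 (chr1:1013247-1013496, plus strand) the 2 matches overlap, and in IFI44L (chr1:78620198-78620447, plus strand) each lies in 1 copy of a repeated stretch. RSAD2 has 2 annotated starts, and the single match lies in the window of the downstream one (chr2:6877527-6877776, plus strand). The windows of MAVS, TOLLIP, OAS1 and SAMHD1 do not contain these letters. The search fixed 2 bases between the repeats. The OAS1 window and the upstream RSAD2 window hold GAAA repeats with 1 base between them, which were not counted. OAS2, OASL, USP18 and STMN4 are named only.

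Of the pathway that feeds MAVS and that MAVS feeds, MAVS alone was called. The list of RIG-I-like receptor and MAVS pathway genes holds 44 members, of which 43 were tested, 1 fell and none rose, with a median log2 fold change of -0.02 against 0.01 over all genes tested. The 3 RNA sensors were all below control in their means without passing the adjusted threshold. At an unadjusted p below 0.05, 2 of the 3 were lower, as were 2.01 % of all genes tested. Without overlap between the groups, 2 of the 3 were lower, as were 5.54 % of all genes tested. IFIH1, which encodes MDA5, the sensor of long double-stranded RNA, was at 6.86, 8.66 and 5.43 CPM with siMAVS and at 11.1, 13.5 and 10.0 CPM with control siRNA. The groups do not overlap, yet the log2 fold change of -0.72 (SE 0.19) had an adjusted p of 0.775. RIGI, the sensor of 5′-triphosphate RNA, was at 22.8, 25.3 and 25.1 CPM against 29.1, 31.4 and 29.6 CPM, a log2 fold change of -0.30 with an adjusted p of 1. DHX58, the regulatory sensor LGP2, was at 1.34, 1.15 and 1.43 CPM against 1.60, 1.96 and 1.42 CPM, with overlapping groups. Downstream, TBK1 (0.14), IRF3 (-0.04), RELA (-0.07), NFKB1 (0.12), TRAF3 (0.02) and TRAF6 (0.04) stood near 0 on the log2 scale, none of them called.

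Interferon messages were at or near 0 counts in these libraries. IFNB1, which encodes interferon beta, had 0 counts in each siMAVS library and 1, 0 and 0 counts in the control libraries, and reached 9 counts in all 48 libraries of the series. Of the 9 ligand genes only IFNE was tested, at 0.0582, 0.0318 and 0 CPM against 0.0428, 0.188 and 0.198 CPM, with an adjusted p of 1. A change in the ligands was not detectable at this depth. Of 18 tested genes for interferon receptors and JAK-STAT signalling, 2 fell, USP18 described above among them, and none rose, with a median of -0.05. The receptor IFNAR1 had a log2 fold change of 0.07 and the kinase JAK1 of 0.03. STAT2, a transcription factor of the interferon response, stood at 150, 164 and 159 CPM with siMAVS and 181, 199 and 158 CPM with control siRNA, and IRF9 at 2.52, 3.38 and 2.30 CPM against 3.38, 4.95 and 2.47 CPM. Both pairs of groups overlap, and neither gene was called.

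Across the interferon-stimulated list the change was broad in direction and uneven in size. Of its 50 members 43 passed the filter on low counts, 9 fell and none rose, with a median log2 fold change of -0.52 against 0.01 for all genes tested. At an unadjusted p below 0.05, 27 were lower and none higher, where 2.01 % of all genes tested were lower. With the replicate block, and with DESeq2, 16 were lower. The means of 41 of the 43 were below control, and 28 were lower without overlap, against 5.54 % of all genes tested. Without siMAVS library 3, 6 were called and the median was -0.43, and without siMAVS library 2, 5 were called with a median of -0.57. The list was drawn up with earlier results of these data known, so its counts are a description.

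By family, 3 of the 4 OAS genes fell, 3 of the 5 genes of the IFI6, IFI27 and IFI44 group, 1 of the 4 IFIT genes, 1 of the 4 tested genes of the ISG15 system and 1 of 17 tested antiviral effectors. None of 6 PARP and DEAD-box genes and none of 3 GBP genes did. IFIT2 and IFIT3, partners of IFIT1, were called only with the block, with adjusted p-values of 0.00159 and 0.00612 there and of 0.207 and 0.37 without it. IFIT3 was at 32.5, 27.9 and 18.8 CPM against 52.4, 51.9 and 37.1 CPM, so library 3 of each group was lowest while the groups stayed apart. The block also brought in IFITM1 (-2.74, adjusted p = 0.0346), HERC6 (-0.84, 0.0381), PLSCR1 (-0.77, 0.0292) and PARP9 (-0.63, 0.0232), each with its log2 fold change from the fit without the block. IFITM1, which restricts virus entry, rests on 7, 2 and 1 counts with siMAVS, and it has close relatives in IFITM2 and IFITM3, between which reads may have been split. Outside the list, the block added GBP4, an interferon-induced GTPase, and ARF3, a GTPase of the Golgi.

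**Figure D3:**
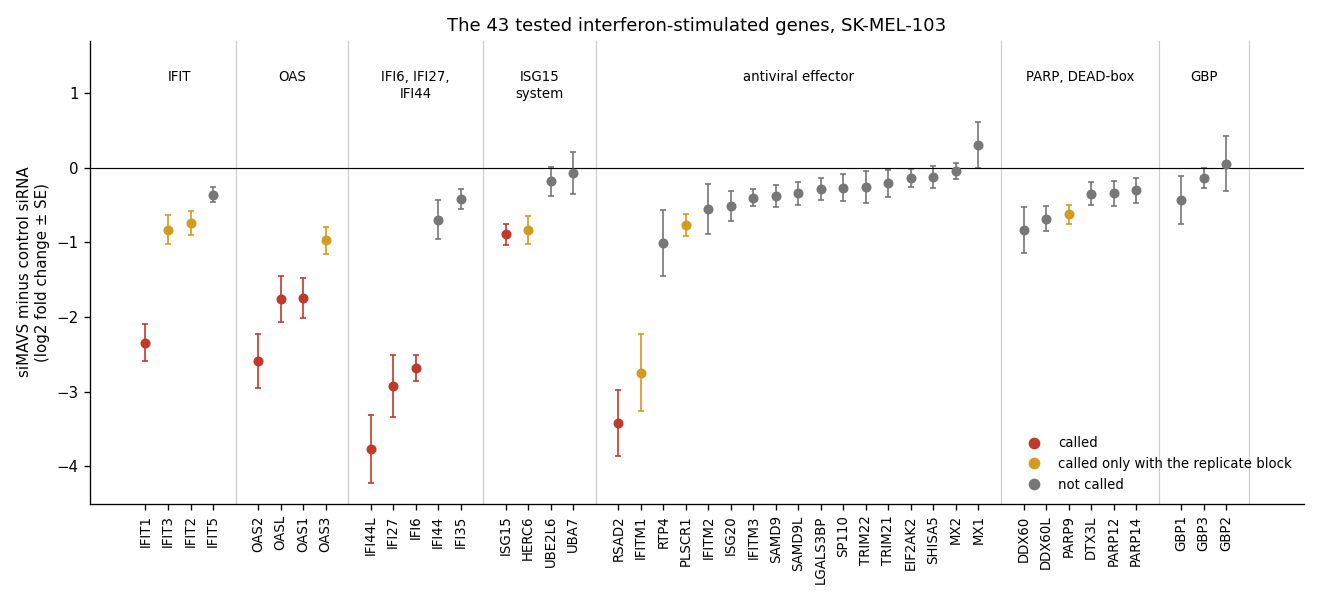
Log2 fold change of siMAVS against control siRNA with its standard error for each of the 43 tested interferon-stimulated genes, grouped by family. Values run from -3.77 for IFI44L to 0.30 for MX1; colours mark the 9 genes called, those called only with the replicate block, and those not called.

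Several classic members of the list were not called. Some did not follow, while others were lower without a call or had too few counts to be tested. MX1, a dynamin-like GTPase that blocks influenza virus, was at 0.859, 1.15 and 0.599 CPM with siMAVS and at 0.6, 1.02 and 0.494 CPM with control siRNA, so its groups overlap and its log2 fold change was 0.30 (SE 0.30, adjusted p = 1). MX2 was at -0.05, EIF2AK2, which encodes the kinase PKR, at -0.14 and GBP2 at 0.05 on the log2 scale. IFITM3, one of the more strongly read members, was at 236, 215 and 205 CPM against 304, 281 and 282 CPM, without overlap but with an adjusted p of 0.853. The 7 members that did not pass the filter were BST2, CMPK2, CXCL9, CXCL10, CXCL11, HERC5 and XAF1. Their counts were small: BST2, the tethering factor that holds virions at the cell surface, had 0, 0 and 1 counts with siMAVS against 16, 10 and 10 with control siRNA, and CXCL10, a chemokine for T cells, had 0 in each siMAVS library against 1, 4 and 1.

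Genes of antigen presentation, which interferon also induces, were not called. For the 20 genes of MHC class I presentation the median log2 fold change was -0.17, the means of 19 were below control, and by edgeR 0 passed at an adjusted p below 0.05 and 0 at an unadjusted p below 0.05, as with DESeq2 at its adjusted threshold. HLA-B was at 857, 892 and 257 CPM with siMAVS against 897, 1011 and 932 CPM, and B2M, the shared light chain, at 844, 862 and 437 CPM against 925, 947 and 915 CPM. In both genes the low siMAVS value is that of library 3. Without that library the median of the list was -0.05 and the means of 14 genes were below control.

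The cytosolic DNA sensing list had 1 called gene of 16 tested, SAMHD1, and a median of -0.04. The sensor CGAS, which makes the messenger cGAMP, was at 3.79, 6.78 and 4.93 CPM with siMAVS against 3.95, 5.16 and 4.31 CPM, with overlapping groups. The adaptor STING1 was at 12.1, 11.4 and 6.45 CPM against 13.5, 14.9 and 13.0 CPM, a log2 fold change of -0.45 with an adjusted p of 1.

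The inflammatory secretory program of senescent cells (SASP) showed no called gene. Of 21 tested SASP cytokines and chemokines 0 were called by edgeR and by DESeq2, 1 was higher and 0 lower at an unadjusted p below 0.05, and the median log2 fold change was 0.09. IL6 was at 1.89, 1.37 and 1.01 CPM with siMAVS and at 1.84, 1.5 and 1.84 CPM with control siRNA (-0.24, SE 0.29). IL1B, the precursor of interleukin-1 beta, was at 97.2, 113 and 130.0 CPM against 96.0, 106 and 101 CPM (0.17, SE 0.15). Both sets of groups overlap. CXCL8, a chemokine for neutrophils, had a log2 fold change of -0.54 (SE 0.30) and the monocyte chemokine CCL2 one of 0.58 (SE 0.45), each with an adjusted p of 1. The smallest p of this list was that of CCL20, at 0.233, 0.127 and 0.553 CPM against 0.114, 0.0627 and 0.132 CPM, again with an adjusted p of 1.

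No call was made among 32 tested SASP proteases and growth factors, where 1 gene was higher and 2 lower at an unadjusted p below 0.05 and DESeq2 called 0, or among 19 NF-kB subunits and targets, where 0 passed an unadjusted p below 0.05. Their median log2 fold changes were -0.10 and 0.01. BMP2, a growth factor of the TGF-beta family, had the smallest p of the first list, at 12.5, 11.9 and 19.5 CPM against 9.29, 9.26 and 7.87 CPM. The 30 p53 targets had a median of -0.02 with 0 at an unadjusted p below 0.05. CDKN1A, the p21 inhibitor of cyclin-dependent kinases that holds senescent cells in arrest, was at 2098, 1999 and 1653 CPM with siMAVS and at 2137, 2317 and 2055 CPM with control siRNA, a log2 fold change of -0.18 (SE 0.11, adjusted p = 1).

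Cell cycle genes were low in the doxorubicin-treated siMAVS and control libraries compared with proliferating cells. The summed level of the 41 genes was 502, 496 and 523 CPM with siMAVS and 461, 460.3 and 465 CPM with control siRNA, against 5244 to 7987 CPM in proliferating cells. In the siMAVS libraries MKI67, which marks dividing cells, was at 0.873, 1.31 and 7.83 CPM against 0.171, 0.209 and 1.05 CPM. The number 3 libraries are the highest of each group and the groups overlap, while within same-numbered pairs MKI67 was higher with siMAVS in 3 of 3, by 2.35, 2.64 and 2.89 on the log2 scale. Its log2 fold change was 2.90 (SE 1.25, adjusted p = 1), and with the replicate block it was 2.66 (SE 0.88, adjusted p = 0.86). Of the list 0 were called by edgeR and by DESeq2, 5 were higher and 0 lower at an unadjusted p below 0.05, and the median was 0.25. By direction alone, 36 of the 41 were above control. Without siMAVS library 3 the median was 0.09, 29 were above control and 1 gene was higher at an unadjusted p below 0.05. The part of this library in the differences between the groups was not tested beyond these values.

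Mitochondrial messages had no called gene with siMAVS. For the 13 mRNAs encoded by mitochondrial DNA the median was -0.01, with 0 called by edgeR or DESeq2 and 0 at an unadjusted p below 0.05, and their summed level was 24952, 20691 and 20235 CPM against 23910.4, 22429.8 and 20929.5 CPM. Among 45 nuclear-encoded respiratory chain genes (median 0.04) and 28 genes of mitochondrial dynamics and mitophagy (0.04), none passed an unadjusted p below 0.05. The same held for 30 genes of the integrated and mitochondrial stress response, 23 of cholesterol synthesis and 27 of the NRF2 response. Of 29 lysosomal genes 1 was higher and 2 lower at that level, of 15 of the BCL2 family 1 was higher, and none of either was called by edgeR or DESeq2. By direction alone, 22 of the 23 cholesterol genes were above control and 21 of the 27 NRF2 genes below. Over all 17945 genes tested, 9261 were above control and 8683 below.

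Lineage and cell type lists also had 0 called genes by edgeR and DESeq2: 11 tested melanocyte genes (1 lower at an unadjusted p below 0.05), 8 dedifferentiation genes (1 lower), 7 fibroblast markers (2 lower) and 9 epithelial, endothelial and leukocyte markers (0). Their median log2 fold changes were -0.18, 0.03, -0.14 and -0.14. The summed level of the last list was 72.6, 69.7 and 137 CPM with siMAVS against 91.3, 84.5 and 108 CPM, so that siMAVS library 3 was the highest.

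**Figure D4:**
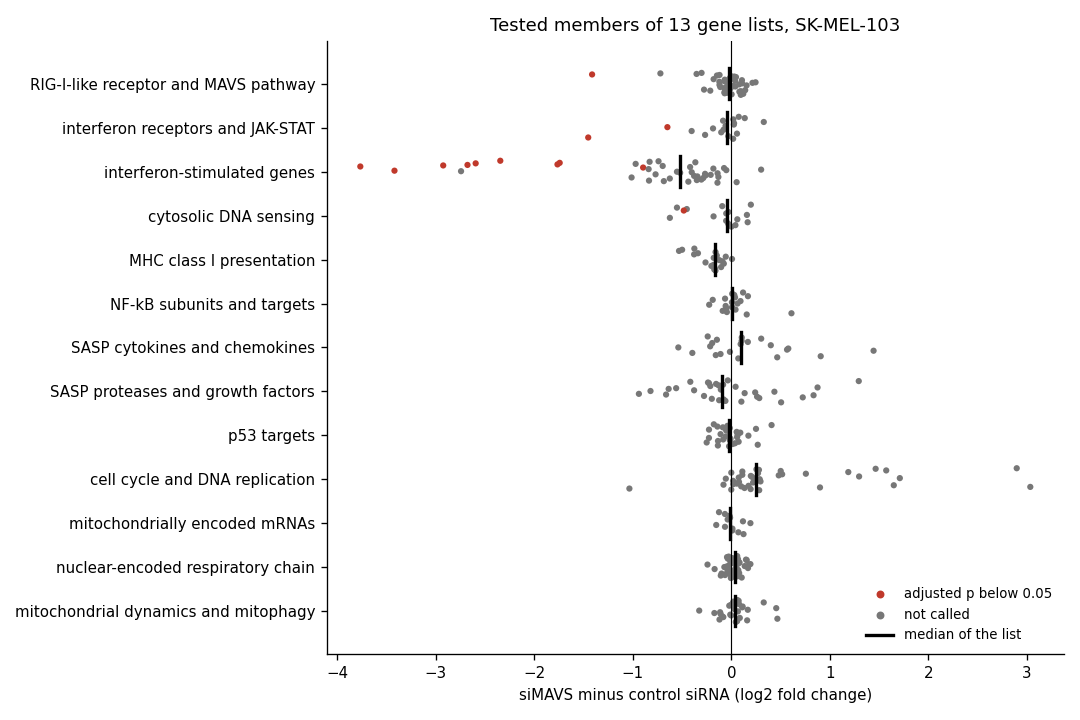
Log2 fold change of siMAVS against control siRNA for the tested members of 13 gene lists, each point a gene and each bar the median of the list. The interferon-stimulated list has its median at -0.52, MHC class I presentation at -0.17 and the cell cycle list at 0.25; the called genes lie in 4 lists and all at or below -0.48.

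To place these levels, the control libraries were set beside proliferating cells. Both comparisons share the doxorubicin-treated control libraries, so the values stand side by side and no overlap is read from them. Doxorubicin with control siRNA raised 5268 genes (29.4 % of those tested) and lowered 5367 (29.9 %). Of the 43 tested interferon-stimulated genes 29 rose with doxorubicin and 4 fell, with a median log2 fold change of 0.98 against 0.03 for all genes tested. IFI6 rose by 3.32 (adjusted p = 2.2e-10), IFIT1 by 3.24 and RSAD2 by 5.25, and MAVS by 0.64 (adjusted p = 0.00164).

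With siMAVS some of the called effector genes reached the levels of proliferating cells and others stayed above them. This comparison is described here and was not tested. IFI6 was at 5.36, 7.71 and 8.42 CPM in proliferating cells, so the siMAVS libraries at 10.3 to 11.6 CPM lay between them and the control libraries. The same order held for IFIT1 (4.36, 2.89 and 2.98 CPM in proliferating cells), ISG15 (15.5, 20.0 and 24.3 CPM), RSAD2 and OASL. ISG15 averaged 34.7 CPM with siMAVS, against 64.7 CPM with control siRNA and 19.9 CPM in proliferating cells. IFIT2, called only with the block, averaged 17.2 CPM with siMAVS, 28.9 CPM with control siRNA and 5.26 CPM in proliferating cells. IFI27, OAS1 and OAS2 overlapped with proliferating cells, at 0.166 to 0.366, 1.33 to 2.62 and 0.119 to 0.509 CPM there. IFI44L with siMAVS lay below its proliferating values of 0.490, 0.949 and 1.78 CPM. TOLLIP and MAVS also went below their proliferating range.

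Genes without a rise in doxorubicin fell as well. USP18 was at 3.96, 2.99 and 3.09 CPM in proliferating cells and had a log2 fold change of -0.25 with doxorubicin (adjusted p = 0.316), against its fall of 1.45 with siMAVS. SAMHD1 stood at 83.2, 82.4 and 82.3 CPM in proliferating cells, fell by 0.60 with doxorubicin (adjusted p = 1.1e-05) and was lower again with siMAVS. OAS3 and PLSCR1, called lower with siMAVS only with the block, fell by 0.89 and 1.14 with doxorubicin.

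Silencing of the mitofusins offers a second siRNA treatment in the same senescent cells, and the direct test of siMAVS against siMFN1+2 does not use the control libraries. By this test 6 genes were lower with siMAVS (0.0334 % of those tested) and 12 higher (0.0669 %), and none of the 43 tested interferon-stimulated genes was among them. With the replicate block 30 were lower and 19 higher. The median difference of the interferon-stimulated list was 0.01. IFI6 was at 11.3, 11.6 and 10.3 CPM with siMAVS and at 11.6, 12.5 and 16.0 CPM with siMFN1+2, a log2 difference of -0.26 (SE 0.17, adjusted p = 0.864). ISG15 was at 31.8, 31.3 and 32.0 CPM with siMFN1+2, a difference of 0.13 (SE 0.14, adjusted p = 0.914). With siMFN1 or siMFN2 alone, the means of the 9 called interferon-stimulated genes were also below control siRNA. IFI6 averaged 17.7 and 24.6 CPM there against 70.9 CPM, and ISG15 38.5 and 41.0 CPM against 64.7 CPM. STMN4 averaged 9.35 CPM with siMFN1 and 0.840 CPM with siMFN2, against 7.25 CPM with control siRNA. These differences of the single mitofusin siRNAs from control siRNA were not tested.

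The genes that did differ included the targets of the siRNAs, mitochondrial messages and TOLLIP. MAVS was at 189, 197 and 184 CPM with siMFN1+2 and lower with siMAVS by 1.52 (adjusted p = 0.000199). MFN2 was higher with siMAVS by 2.14 (adjusted p = 7.5e-09) and MFN1 by 1.31 (adjusted p = 0.000755). Of the 13 mitochondrially encoded mRNAs 8 were higher with siMAVS, and the 2 other genes called higher were MTATP6P1 and MTCO1P12, nuclear pseudogene copies of mitochondrial genes whose reads may belong to the originals. Those with the largest differences were the cytochrome oxidase subunits MT-CO3 (1.5), MT-CO1 (1.37) and MT-CO2 (1.35). MT-CO1 was at 7729, 6743 and 5707 CPM with siMAVS and at 2291, 3177 and 2365 CPM with siMFN1+2, with no overlap and an adjusted p of 0.000378.

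TOLLIP was at 112, 111 and 134 CPM with siMFN1+2, above every siMAVS library, and was lower with siMAVS by 0.68 (SE 0.11, adjusted p = 0.0172). ARHGEF10L, GNG7, a G protein gamma subunit, and PLCG1, a phospholipase C, were lower with siMAVS by 0.78, 0.77 and 0.53, with adjusted p-values of 0.0221, 0.0137 and 0.049. TRNP1, at 1.03, 0.796 and 0.875 CPM with siMAVS against 2.24, 1.81 and 2.66 CPM, was lower by 1.28 (adjusted p = 0.0407). Against control siRNA the log2 fold changes were -0.55 for ARHGEF10L, -0.16 for GNG7, -0.17 for PLCG1 and -1.09 for TRNP1, none called. When each library of this comparison was left out in turn, 1 to 3 genes were lower and 8 to 13 higher, with the lowest count of 1 without siMAVS library 1 and again without siMFN1+2 library 1.

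**Figure D5:**
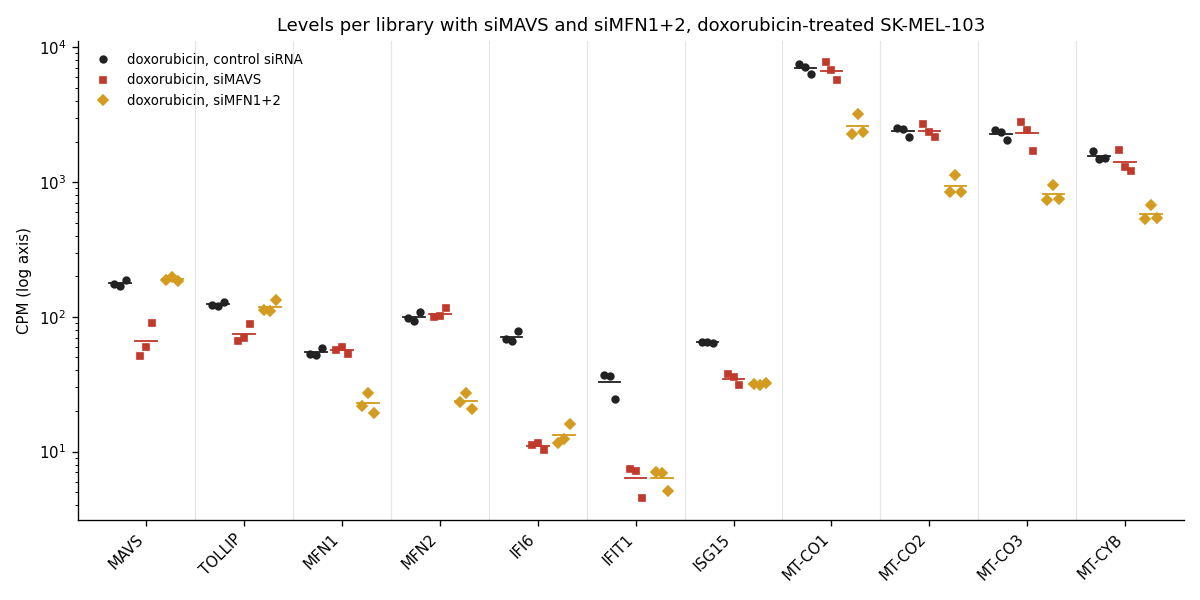
Level in CPM, on a log axis, of 11 genes in every library of doxorubicin-treated SK-MEL-103 cells with control siRNA, siMAVS or siMFN1+2; short lines are means of 3 libraries. IFI6, IFIT1 and ISG15 are low with both siRNA treatments, TOLLIP is at 65.7 to 88.1 CPM with siMAVS and 111 to 134 CPM with siMFN1+2, and MT-CO1 is at 2291 to 3177 CPM with siMFN1+2 only.

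The effect of siMAVS was then set against that in senescent IMR-90 fibroblasts, in a fit over the 36 siRNA libraries of both lines. The test of the difference between the lines found 0 genes lower and 5 higher (0.0239 % of 20892 tested) by edgeR, and DESeq2 found 24 lower and 36 higher. With the replicate block there were 7 lower and 15 higher. None of the 49 tested interferon-stimulated genes differed between the lines in the fit without the block, and the median difference of the list was -0.12. The fall of MAVS differed by 0.08 (SE 0.22, adjusted p = 0.99). The 5 genes were DSG2, NAP1L2, KIF5C, MELTF and AMPD3, which fell in IMR-90 and were not called in SK-MEL-103.

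Several of the genes lowered in SK-MEL-103 were also lower in IMR-90, where 1.17 % of the genes tested were called lower. IFI6 was at 11.6, 10.7 and 8.94 CPM with siMAVS in IMR-90 against 28.2, 22.9 and 73.3 CPM, a fall of 1.99 (adjusted p = 0.000483). In that line control library 3 was far above the other two, which was not so in SK-MEL-103. Its sample description carries a number far from that of IMR-90 siMAVS library 3, and the labels name no batch. The part of this control library in the IMR-90 falls was not tested. IFI44L was at 0.133, 0.356 and 0.126 CPM against 1.07, 1.44 and 2.47 CPM, a fall of 2.98 (adjusted p = 0.000911). TOLLIP was at 55.3, 52.3 and 53.5 CPM against 82.7, 82.3 and 78.3 CPM, a fall of 0.59 (SE 0.09, adjusted p = 0.000504). IFIT1, IFI27 and OAS1 fell in IMR-90 too, by 1.40, 2.43 and 2.53, with adjusted p-values of 0.0356, 0.026 and 0.0384. IFIT1 was at 6.29, 4.59 and 3.76 CPM with siMAVS against 5.85, 7.55 and 25.8 CPM, so its groups overlap. IFI27 was at 0.421, 2.52 and 1.42 CPM against 7.05, 6.29 and 10.1 CPM. OAS1 was at 0.354, 0.492 and 0.190 CPM against 0.962, 1.22 and 4.01 CPM, with control library 3 again the highest.

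Other genes were called in a single line, among them RSAD2, USP18 and ISG15 in SK-MEL-103 and CXCL8 in IMR-90. RSAD2 differed between the lines by -2.44 (SE 0.90, adjusted p = 0.49), USP18 by -1.03 and ISG15 by -0.48 (adjusted p = 0.557 and 0.846). CXCL8 fell by 2.99 in IMR-90 (adjusted p = 0.0286), against -0.54 in SK-MEL-103, and the difference of 2.44 (SE 1.05) had an adjusted p of 0.605. For these genes a difference between the lines was therefore not shown.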

How the data were processed

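RNA was measured by stranded mRNA sequencing. The authors deposited raw read counts per gene in 1 table of 48 libraries, made with Trim Galore 0.6.7, STAR 2.7.10a and featureCounts on GRCh38, per the submitters' processing notes. The annotation release and the strand setting of the counting are not given in the sources used here, so reads of overlapping and antisense genes may not be separated, and reads of close relatives (OAS, IFIT, IFITM and HLA genes) may be split. Rows without a symbol held 0.122 % of the counts. Gene positions are from GENCODE 29.

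The deposited counts of the 18 SK-MEL-103 siRNA libraries (6 groups of 3) were filtered with filterByExpr, scaled by TMM and tested with the quasi-likelihood F test of edgeR 4.0.16 (limma 3.58.1, R 4.3.3), with Benjamini-Hochberg adjustment over 17945 genes. The standard error is the size of the log2 fold change divided by the square root of F. The difference between lines was tested in 1 fit of 36 libraries. The test was checked on simulated counts. DESeq2 1.42.0, other size factors, other filters, fewer libraries, a replicate block and leaving out each library were the alternatives. The IMR-90 effect as its own contrast was added after seeing the data.

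Deviations from the group means correlated at 0.144, 0.205 and 0.236 between same-numbered siMAVS and control libraries and at -0.19 to 0.07 between others. The numbers come from the titles and were taken to pair the libraries for the pairwise values and the replicate block. The main test has no block, because the study names none, and so does not use this pairing. Total counts also fell with the replicate number in both groups, so shared handling and shared depth cannot be told apart. No 2 replicates agreed within counting noise. One siMFN2 library without a number was taken as replicate 1.

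The genes and gene lists were chosen with earlier results of these data known. Named genes were a fixed set (MAVS, the mitofusins, CDKN1A, MKI67 and several cytokine and interferon genes), the 10 highest and 10 lowest called genes without overlap whose log2 CPM averaged 2 or more, the RNA sensors, and from each list up to 3 called members in each direction or, with none called, the member with the smallest p. Other genes, among them OAS1, OAS2, OASL, STMN4 and those called only with the block, were named after their values were seen. One of the called genes is not reported here.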

Additional observations from a re-analysis of the deposited data

Results flagged for a closer look

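The effect of siMAVS differed between SK-MEL-103 and IMR-90 for 5 genes by the test of the difference itself (edgeR's quasi-likelihood test), each with a fall in IMR-90 and no call in SK-MEL-103. For DSG2, a desmosomal cadherin, the SK-MEL-103 effect minus the IMR-90 effect was 3.84 on the log2 scale (SE 0.52, adjusted p = 0.000868). DSG2 was at 1.57, 2.60 and 1.83 CPM with siMAVS in IMR-90 against 41.6, 21.2 and 29.4 CPM with control siRNA, and at 77.2, 91.3 and 90.4 CPM against 88.4, 85.6 and 100.5 CPM in SK-MEL-103. The same difference was 3.40 for NAP1L2, a nucleosome assembly protein (adjusted p = 0.00849), and 2.22 for KIF5C, a kinesin heavy chain (adjusted p = 0.000868). It was 1.84 for MELTF, melanotransferrin (adjusted p = 0.00129), and 1.73 for AMPD3, an AMP deaminase (adjusted p = 0.0302). AMPD3 was at 9.81, 9.49 and 20.6 CPM with siMAVS in SK-MEL-103, with library 3 the highest, against 10.4, 10.0 and 12 CPM.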

How the results depend on the processing

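In SK-MEL-103, the 15 genes lower and 0 higher with siMAVS, 9 of them interferon-stimulated, became 73, 105 and 19 with no filter on low counts, where 72 of the 73 and all 105 had been among the genes tested with the filter. With the replicate block, which uses the pairing, they became 24, 1 and 16, and with DESeq2 26, 1 and 16. The 15 doxorubicin-treated libraries alone gave 23 lower and 1 higher. The 6 libraries of the comparison alone gave 7 lower, and with the replicate block on those 6 there were 2, both interferon-stimulated. Leaving out 1 library in turn gave 8 to 12 lower, 0 higher and 5 to 8 interferon-stimulated genes, the lowest of both without siMAVS library 2. IFI6 and IFIT1 passed in all 14 alternatives. For siMAVS against siMFN1+2, the 6 lower and 12 higher became 115 and 166 with no filter, 30 and 19 with the replicate block and 46 and 31 with DESeq2, and 1 to 3 and 8 to 13 with 1 library left out. For the difference between lines, the 0 lower and 5 higher became 26 and 15 with no filter, 7 and 15 with the replicate block and 24 and 36 with DESeq2. With 1 library left out they were 0 to 18 and 3 to 14: 18 lower and 11 higher without IMR-90 siMAVS library 2, 5 and 14 without IMR-90 control library 2, and 3 higher without IMR-90 control library 1. The cause of these changes was not tested. No named gene that was called reversed its direction in an alternative. Genes near 0 counts, such as IFNB1 and CXCL10, are limited by depth, and 20834544 counts in the shallowest library of the comparison set the floor.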
